A study of Mus musculus with 11 samples.

Results

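The BCL2 family genes described here are 10 mouse genes of the mitochondrial death pathway, namely Bcl2, Bcl2l1, Mcl1, Bax, Bak1, Bcl2l11, Bbc3, Pmaip1, Bid and Bad. Every probe set that the array annotation assigns to exactly 1 gene symbol, with that symbol among the 10, was taken. This gave 29 of 34958 such probe sets and 9 of 18194 genes. Bax had 0 probe sets of this kind and was not analysed here. A probe set is a group of short oligonucleotides on the array that together read 1 transcript or part of it. The values are log2 expression levels, so a difference of 1 is a factor of 2.

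RNA was measured on 11 one-colour arrays of T cells that had been purified from mouse spleen by negative magnetic selection. All donors were female mice on the C57BL6 background, 3 to 4 months old. The 4 groups were activated crbn-/- cells (3 arrays), naive crbn-/- cells (3 arrays), activated wild-type cells (2 arrays) and naive wild-type cells (3 arrays). Activated cells had received plate-bound anti-CD3 at 5 µg/ml and soluble anti-CD28 at 1 µg/ml for 12 hours, while naive cells were collected unstimulated. No group cultured without stimulation for the same time is listed, so time in culture and stimulation cannot be told apart. Crbn encodes cereblon, which brings substrates to a CUL4 ubiquitin ligase. The labels do not state which part of the gene crbn-/- (knockout) mice lack.

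Proteins of the BCL2 family decide whether the outer mitochondrial membrane is opened and cytochrome c released. Survival members such as BCL2, BCL-XL and MCL1 hold the effectors BAX and BAK in check, and the BH3-only proteins BIM, PUMA, NOXA, BID and BAD bind survival members, with some of them also activating the effectors directly. Resting T cells are known to depend on BCL2 and MCL1, and BCL-XL is known as a survival protein induced by CD28 costimulation. Much of the control of these proteins is through their stability, phosphorylation and cleavage, which an RNA array does not read.

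The knockout label was checked on Crbn itself. Its brightest probe set (1423095_s_at) read 8.70, 8.77 and 8.58 in knockout activated cells, against 9.71 and 9.47 in wild-type activated cells. It read 8.97, 9.07 and 8.91 in knockout naive cells, against 10.06, 10.21 and 10.09 in wild-type naive cells. The groups did not overlap, and the difference was -0.90 in activated and -1.13 in naive cells (limma adjusted p = 0.0039 and 7.9e-05). In activated cells the adjusted p was 0.0903 without wild-type activated replicate 1 and 0.0792 with only the compared arrays. A further Crbn probe set, 1455734_at, did not pass there (-0.56, adjusted p = 0.073). The T cell marker Cd3e lay between 11.14 and 11.97 on all arrays. Within groups the arrays correlated at 0.994 to 0.997 over probe sets.

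Most of the family differed between activated and naive cells, and the survival and death genes did not divide by role. Bcl2l1 and the BH3-only genes Bcl2l11 and Bid rose in both genotypes, and Mcl1 and the BH3-only genes Bbc3, Pmaip1 and Bad fell in both. Bcl2 fell in knockout cells only by its brightest probe set, and Bak1 did not pass the test in either genotype. In knockout cells 21 of 29 probe sets passed an adjusted p of 0.05, 11 higher and 10 lower, against a background of 41.6% of all probe sets (21.5% higher and 20.2% lower). In wild-type cells 19 of 29 passed, 10 higher and 9 lower, against a background of 37.8% (18.9% in each direction). Counted by the brightest probe set of each gene, 8 of 9 genes passed in knockout cells (background 42.7%) and 7 of 9 in wild-type cells (background 40.2%). The median absolute difference of the 29 probe sets was 0.65 in knockout cells and 0.55 in wild-type cells, against 0.18 and 0.20 over all probe sets. In RNA of a cell mixture, fewer cells of a type and less RNA per cell cannot be told apart.

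**Figure D1:**
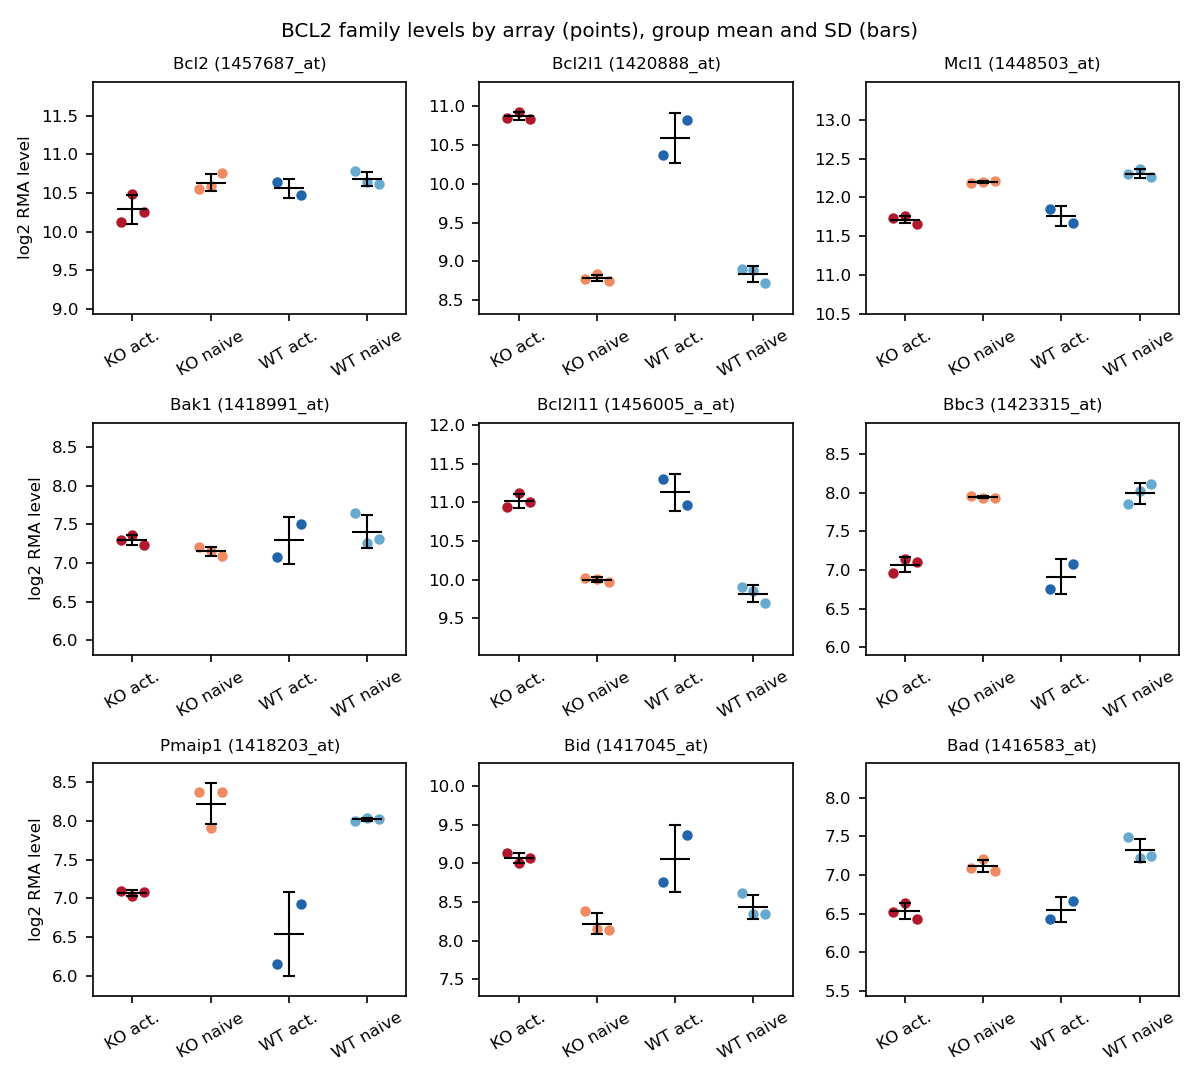
Log2 expression (y axis) of the brightest probe set of each of the 9 measured genes in the 4 groups. Points are arrays, and bars are the mean and SD. Activated and naive points are apart for Bcl2l1, Bcl2l11, Bid, Mcl1, Bbc3, Pmaip1 and Bad in both genotypes and overlap for Bcl2 and Bak1 in wild-type cells.

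Among the survival genes, Bcl2l1, which encodes BCL-XL, had the largest rise of the 9 genes in both genotypes by the brightest probe sets. Its brightest probe set (1420888_at) read 10.85, 10.93 and 10.84 in knockout activated cells, against 8.78, 8.83 and 8.74 in knockout naive cells. In wild-type cells it read 10.37 and 10.82 when activated, against 8.90, 8.89 and 8.71 when naive. All activated arrays lay above all naive arrays. The rise was 2.09 ± 0.10 (SE) in knockout cells, or 4.26-fold (limma adjusted p = 3.8e-09), and 1.76 ± 0.12 in wild-type cells, or 3.39-fold (adjusted p = 9.8e-08). From the largest rise down, this placed Bcl2l1 at rank 149 of 18194 genes in knockout cells and at rank 147 in wild-type cells.

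A pair of further Bcl2l1 probe sets also rose in both genotypes. Probe set 1426191_a_at rose by 1.42 in knockout cells and 1.19 in wild-type cells, and 1420887_a_at by 0.75 and 0.80 in the same order of genotypes. The wild-type call of 1420887_a_at was lost without wild-type activated replicate 2 (adjusted p = 0.101). The remaining one, 1426050_at, lay below 4.57, the lowest of the arrays' lower quartiles, on all 11 arrays. With the mean over all 4 probe sets the rise was 1.05 in knockout and 0.92 in wild-type cells. Erythroid cells also express Bcl2l1, and of their 7 measured markers 2 fell in knockout and 4 in wild-type cells. Over all genes by brightest probe set, 22.2% fell in knockout and 20.6% in wild-type cells. The summed log2 level of 7 erythroid markers was 40.5 to 46.7 in knockout activated against 44.1 to 54.6 in knockout naive cells, and 44.6 to 45.3 in wild-type activated against 52.0 to 63.9 in wild-type naive cells. Their part in the Bcl2l1 values was not tested.

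Mcl1 encodes a short-lived survival protein, and its RNA was lower in activated cells. Probe set 1448503_at read 11.73, 11.76 and 11.66 in knockout activated cells, against 12.19, 12.20 and 12.21 in knockout naive cells. The wild-type values were 11.86 and 11.67 in activated cells, against 12.30, 12.37 and 12.26 in naive cells. The groups did not overlap in either genotype. Mcl1 fell by 0.48 ± 0.07 (SE) in knockout cells (adjusted p = 7.8e-05) and by 0.55 ± 0.08 in wild-type cells (adjusted p = 1e-04). These are 1.40-fold and 1.46-fold higher levels in naive than in activated cells.

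The Mcl1 probe sets did not all move alike. Of the 6, 5 passed as lower in both genotypes, with differences of -0.66 to -0.48 in knockout and -0.55 to -0.36 in wild-type cells. Probe set 1416881_at differed by 0.08 in knockout and 0.13 in wild-type cells (adjusted p = 0.46 and 0.29), and its groups overlapped. The wild-type call of 1456381_x_at was lost without wild-type activated replicate 2 (-0.30, adjusted p = 0.0967). The mean over the 6 probe sets gave -0.34 in wild-type cells (adjusted p = 0.00107).

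Bcl2, the founding survival gene of the family, moved little. Its brightest probe set (1457687_at) read 10.12, 10.49 and 10.26 in knockout activated cells, against 10.55, 10.59 and 10.76 in knockout naive cells. Wild-type cells read 10.64 and 10.48 when activated, against 10.78, 10.64 and 10.62 when naive. The knockout groups did not overlap, and Bcl2 fell by 0.34 ± 0.10 (SE, adjusted p = 0.013). In wild-type cells the groups overlapped and the difference was -0.12 ± 0.11 (adjusted p = 0.45). The other 4 Bcl2 probe sets did not pass in either genotype, with differences of -0.30 to -0.09 in knockout and -0.18 to 0.06 in wild-type cells. The knockout call of 1457687_at was lost without knockout activated replicate 1 (adjusted p = 0.0711), without knockout naive replicate 3 (adjusted p = 0.0604) and with the mean of the 5 probe sets (adjusted p = 0.152). Probe set 1422938_at passed as lower in knockout cells in 7 of the other settings, among them quantile normalization (-0.32, adjusted p = 0.0392) and leaving out knockout activated replicate 2 (-0.40, adjusted p = 0.0297) or 3 (-0.39, adjusted p = 0.0347), and 1437122_at did without knockout activated replicate 2 (-0.44, adjusted p = 0.0216).

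**Figure D2:**
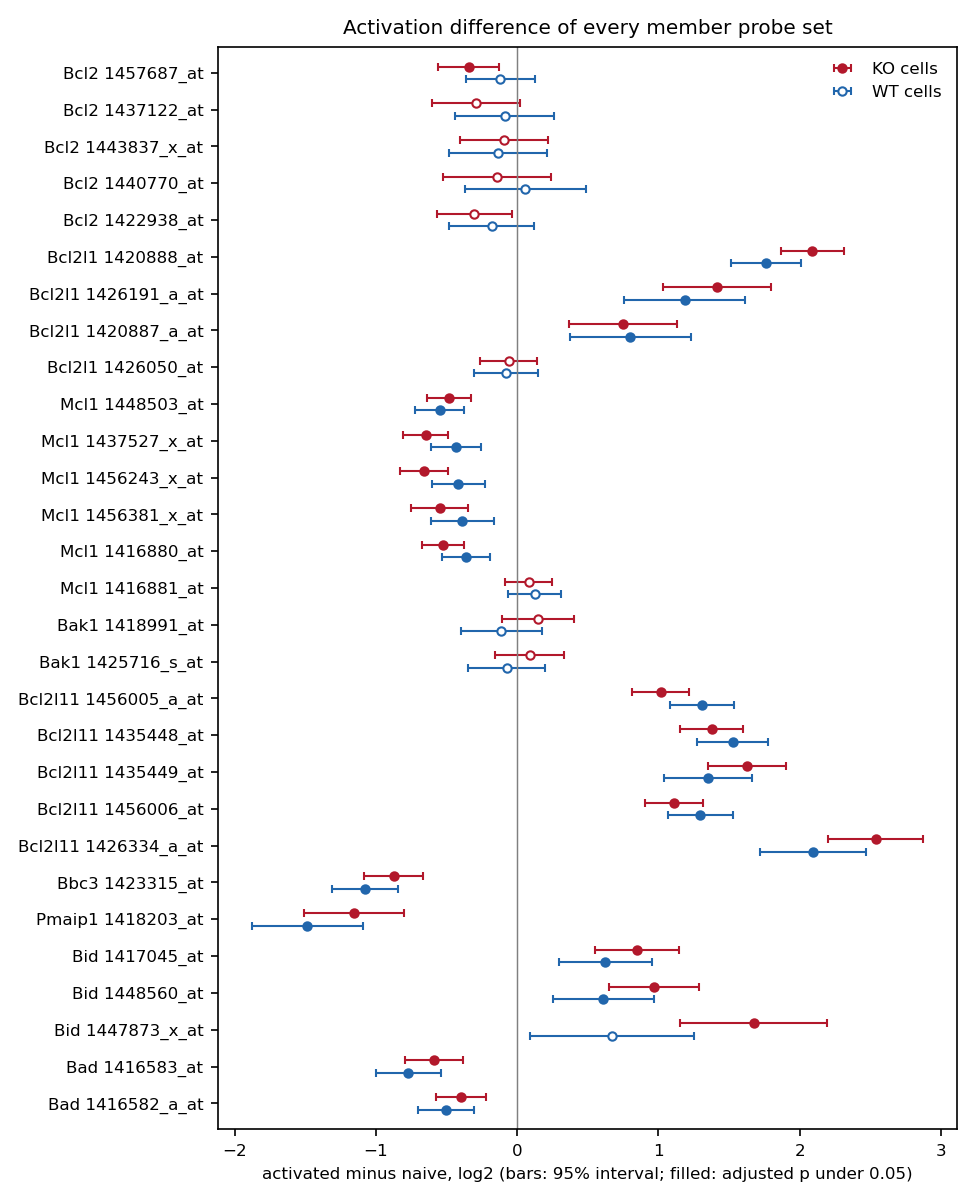
Activated minus naive log2 difference (x axis) of all 29 probe sets, with knockout (red) above wild type (blue) in each row; lines are 95% confidence intervals and filled symbols have an adjusted p under 0.05. The 5 Bcl2l11 probe sets lie right of 0 in both genotypes, between 1.02 and 2.54 in knockout and 1.30 and 2.10 in wild-type cells.

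Of the effector genes, which encode the proteins that form the membrane pore, only Bak1 had probe sets here. Probe set 1418991_at read 7.30, 7.36 and 7.23 in knockout activated cells, against 7.21, 7.16 and 7.09 in knockout naive cells. It read 7.08 and 7.51 in wild-type activated cells, against 7.65, 7.26 and 7.30 in wild-type naive cells. The knockout arrays did not overlap and the wild-type arrays did. The difference was 0.15 (95% interval -0.11 to 0.40) in knockout and -0.11 (-0.40 to 0.18) in wild-type cells, with adjusted p-values of 0.37 and 0.55. The other Bak1 probe set, 1425716_s_at, differed by 0.09 and -0.07 in the same order of genotypes and did not pass.

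The BH3-only genes divided into a pair that rose and a trio that fell. Bcl2l11 and Bbc3 moved in opposite directions. For each, the promoter window that held the core of the FOXO motif is shown, and its other windows held no match. FOXO factors are a class known for activating both genes in cells deprived of growth factors. The windows are the 250 bases before a start site in the RefSeq promoter table (GRCm38.p6), on the strand of the gene, here the plus strand. Capitals mark the match, GTAAACA or its reverse complement TGTTTAC.
Bcl2l11 chr2:128125788-128126037: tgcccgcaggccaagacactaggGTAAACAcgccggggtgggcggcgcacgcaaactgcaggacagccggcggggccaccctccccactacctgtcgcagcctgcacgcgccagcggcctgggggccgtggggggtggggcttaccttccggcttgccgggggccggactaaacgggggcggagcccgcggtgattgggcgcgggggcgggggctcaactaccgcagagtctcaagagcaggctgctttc
Bbc3 chr7:16310011-16310260: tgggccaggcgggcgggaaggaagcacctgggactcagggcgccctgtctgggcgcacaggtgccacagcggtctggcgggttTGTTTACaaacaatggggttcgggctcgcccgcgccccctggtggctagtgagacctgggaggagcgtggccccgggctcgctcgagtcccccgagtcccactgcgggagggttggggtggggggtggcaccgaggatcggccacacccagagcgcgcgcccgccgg
The match lay 227 to 221 bases before this Bcl2l11 start and 167 to 161 bases before this Bbc3 start. On both strands, 3.17% of all 32851 windows of this length held it, and 2 of the 15 family windows did, which cover the family genes other than Pmaip1, Bax included. A match describes the letters and shows no binding.

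Bcl2l11, which encodes BIM, rose in both genotypes by every one of its 5 probe sets. The brightest (1456005_a_at) read 10.94, 11.11 and 11.00 in knockout activated cells, against 10.03, 10.01 and 9.97 in knockout naive cells. In wild-type cells it read 11.30 and 10.96 when activated, against 9.90, 9.86 and 9.70 when naive. The groups stood apart. The rise was 1.02 ± 0.09 (SE), or 2.02-fold, in knockout cells (adjusted p = 9e-07) and 1.31 ± 0.10, or 2.48-fold, in wild-type cells (adjusted p = 5.1e-07). Probe set 1426334_a_at had the largest rise of the 5, and of all 29 family probe sets. It read 7.60, 7.99 and 7.69 in knockout activated against 5.29, 5.11 and 5.26 in knockout naive cells, and 7.62 and 7.79 in wild-type activated against 6.01, 5.27 and 5.54 in wild-type naive cells. This was a 5.82-fold rise in knockout and a 4.28-fold rise in wild-type cells (adjusted p = 2.3e-08 and 7.1e-07). With the mean of the 5 probe sets the knockout rise was 1.53, above the 1.05 of Bcl2l1 taken the same way.

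Bid encodes a BH3-only protein that caspase 8 cleaves, which joins the death receptor pathway to mitochondria. Its brightest probe set (1417045_at) read 9.13, 9.01 and 9.07 in knockout activated cells, against 8.38, 8.15 and 8.14 in knockout naive cells. It read 8.75 and 9.37 in wild-type activated cells, against 8.62, 8.35 and 8.34 in wild-type naive cells. No activated array lay below a naive one of its genotype, though wild-type activated replicate 1 stood close to the naive arrays. Bid rose by 0.85 ± 0.14 (SE) in knockout cells (1.80-fold, adjusted p = 0.00016) and by 0.63 ± 0.15 in wild-type cells (1.54-fold, adjusted p = 0.0051). Probe set 1448560_at rose by 0.97 and 0.61, knockout before wild type, and 1447873_x_at rose by 1.68 in knockout cells and differed by 0.67 in wild-type cells (adjusted p = 0.067). The wild-type values turned on single activated arrays, in opposite ways. Without wild-type activated replicate 2 the difference was 0.32 (adjusted p = 0.0987) for 1417045_at and 0.36 (adjusted p = 0.161) for 1448560_at, whereas it was 1.15 (adjusted p = 0.00835) for 1447873_x_at, whose higher wild-type activated array was replicate 1 (7.24 against 6.28). Probe set 1447873_x_at also passed in wild-type cells with a filter at the median level (adjusted p = 0.0494), array weights (0.0402), a replicate block within genotype (0.0312) and without knockout naive replicate 3 (0.0214).

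Pmaip1, which encodes NOXA, a BH3-only partner of MCL1, had the largest fall of the 9 genes. Its only probe set (1418203_at) read 7.10, 7.03 and 7.08 in knockout activated cells, against 8.37, 7.91 and 8.38 in knockout naive cells. It read 6.16 and 6.92 in wild-type activated cells, against 8.01, 8.04 and 8.02 in wild-type naive cells. The groups did not overlap, and the wild-type activated arrays were far apart from each other. Pmaip1 fell by 1.15 ± 0.16 (SE) in knockout cells (adjusted p = 5.2e-05) and by 1.49 ± 0.18 in wild-type cells (adjusted p = 2.2e-05), levels 2.22-fold and 2.80-fold higher in naive cells.

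Bbc3 encodes PUMA, a p53 target that binds all main survival proteins. Its probe set (1423315_at) read 6.96, 7.14 and 7.10 in knockout activated cells, against 7.96, 7.94 and 7.93 in knockout naive cells. It read 6.75 and 7.08 in wild-type activated cells, against 7.85, 8.02 and 8.11 in wild-type naive cells. Every activated array lay below every naive array. Bbc3 fell by 0.87 ± 0.10 (SE) in knockout (adjusted p = 4.8e-06) and by 1.08 ± 0.11 in wild-type cells (adjusted p = 3.3e-06).

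Bad encodes a BH3-only protein held inactive by phosphorylation when survival kinases are active. Probe set 1416583_at read 6.52, 6.64 and 6.43 in knockout activated cells, against 7.10, 7.21 and 7.06 in knockout naive cells. It read 6.44 and 6.67 in wild-type activated cells, against 7.50, 7.22 and 7.24 in wild-type naive cells. The groups did not overlap. Bad fell by 0.59 ± 0.10 (SE) in knockout cells (adjusted p = 0.00017) and by 0.77 ± 0.11 in wild-type cells (adjusted p = 6.5e-05). The second Bad probe set, 1416582_a_at, fell by 0.40 and 0.50, knockout before wild type.

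**Figure D3:**
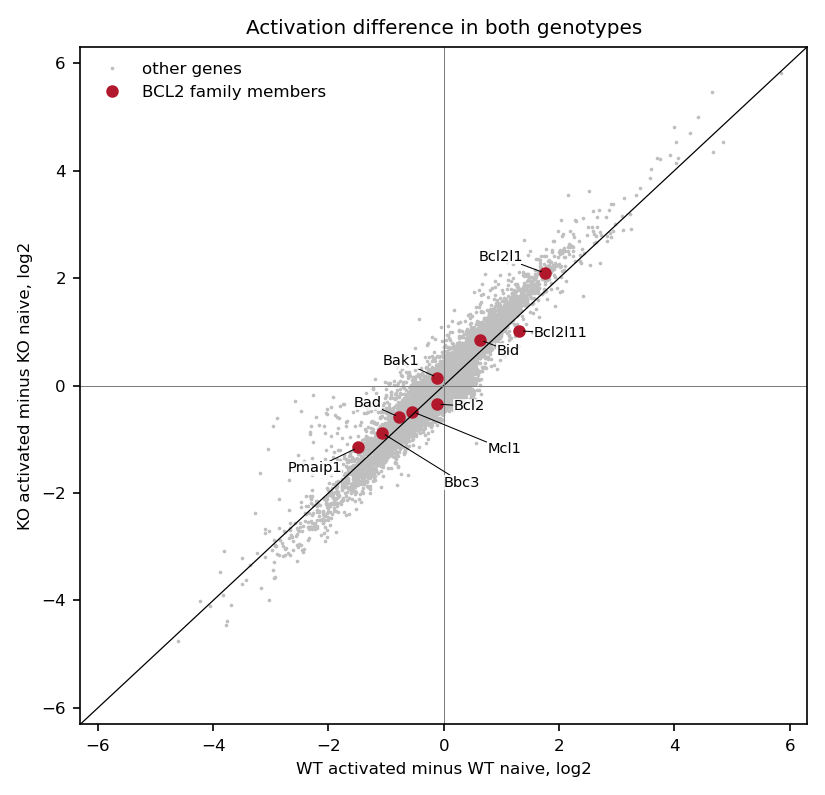
Activated minus naive log2 difference in knockout cells (y axis) against that in wild-type cells (x axis) for 18194 genes by their brightest probe set, with family members in red and the line of equal difference. Bcl2l1 lies highest of the family at 2.09 and 1.76, and Pmaip1 lowest at -1.15 and -1.49, knockout before wild type.

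Some markers of other cells also differed between activated and naive cells. Over all genes by brightest probe set, 22.2% were lower and 20.5% higher in activated knockout cells. In activated wild-type cells 20.6% were lower and 19.6% higher. Of 7 measured B cell markers 5 fell in both genotypes, with a summed log2 level of 52.6 to 55.5 in knockout activated against 58.7 to 63.5 in knockout naive cells. The wild-type sums were 50.1 to 52.8 in activated against 57.1 to 59.1 in naive cells. Macrophage and monocyte markers fell for 6 of 8 in knockout and 7 of 8 in wild-type cells, and summed to 56.1 to 58.4 in knockout activated against 62.5 to 66.95 in knockout naive cells and to 56.7 in wild-type activated against 62.2 to 63.7 in wild-type naive cells. Markers of plasma cells fell for 1 of 4 in both genotypes, of neutrophils for 2 of 6 in both, of dendritic cells for 2 of 5 in knockout and 3 of 5 in wild-type cells, and of platelets for 2 of 5 and 1 of 5. NK cell markers fell for 3 of 4 in knockout and 2 of 4 in wild-type cells, with 1 rising in each. T cell markers themselves fell for 8 of 9 in both genotypes, and 1 rose in wild-type cells. On a log2 scale none of these lists has a true 0, and their part in the activation differences of the family was not tested.

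Cereblon loss was compared within each state, which asks whether the family differs between genotypes before or after stimulation. No member passed in either state. Of the 29 probe sets 0 passed in activated cells (lowest adjusted p = 0.455 by limma, background 0.0629%) and 0 in naive cells (lowest adjusted p = 0.22, background 0.157%). By brightest probe set it was 0 of 9 genes in both states, with backgrounds of 0.0605% in activated and 0.148% in naive cells. Over all probe sets the calls moved with the fit, from 1 without wild-type activated replicate 1 up to 36 without knockout activated replicate 2 in activated cells (22 as fitted), and from 14 with only the compared arrays up to 702 with array weights in naive cells (55 as fitted), while the family stayed at 0 calls. At an unadjusted p under 0.05 there were 4 of 29 in activated cells, against 7.91% of all probe sets, and 3 of 29 in naive cells, against 14.6%. A missed threshold does not show that the genotypes were alike, and the 95% intervals give the range of differences left by these arrays.

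The widest gap between genotypes among the brightest probe sets was that of Pmaip1 in activated cells, with 7.10, 7.03 and 7.08 in knockout against 6.16 and 6.92 in wild-type arrays. The knockout arrays lay above both wild-type arrays. The difference was 0.53 (95% interval 0.14 to 0.93, adjusted p = 0.455). It was 0.15 (adjusted p = 0.9) without wild-type activated replicate 1 and 0.91 (adjusted p = 0.0794) without replicate 2. Bcl2l1 also lay higher on all knockout activated arrays than on the wild-type ones, by 0.28 (0.03 to 0.53, adjusted p = 0.57). That difference was 0.05 without wild-type activated replicate 1 and 0.51 without replicate 2. Bcl2 differed by -0.27 (-0.51 to -0.03, adjusted p = 0.57) in activated cells. For Bcl2l11 the difference was -0.11 (-0.34 to 0.11), for Bbc3 0.15 (-0.08 to 0.39) and for Mcl1 -0.05 (-0.22 to 0.13). The other Mcl1 probe sets differed by -0.18 to -0.07, with 1416880_at at -0.18 (-0.35 to -0.01, adjusted p = 0.61). Bak1 differed by 0.01 (-0.28 to 0.30), Bid by 0.01 (-0.32 to 0.34) and Bad by -0.02 (-0.25 to 0.21). Without wild-type activated replicate 1 and without replicate 2 these were -0.21 and 0.23 for Bak1, -0.30 and 0.32 for Bid, and -0.14 and 0.09 for Bad.

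In naive cells the 9 brightest probe sets differed by -0.25 to 0.20. Bak1 was at -0.25 (95% interval -0.51 to 0.01), Bid at -0.22 (-0.51 to 0.08) and Bad at -0.20 (-0.41 to 0.01), and Pmaip1 at 0.20 (-0.16 to 0.55). The lowest adjusted p of all naive member probe sets was that of Bid 1447873_x_at, with 5.70, 5.67 and 4.83 in knockout against 6.18, 5.91 and 6.18 in wild-type cells. This was a difference of -0.69 (-1.21 to -0.17, adjusted p = 0.22), and the groups did not overlap. Erythroid markers had a median knockout minus wild-type difference of -1.68 in naive cells, with 0 of 7 passing. Klf1, an erythroid transcription factor gene, read 8.07, 6.59 and 6.38 in knockout naive against 10.17, 8.60 and 7.65 in wild-type naive cells. Wild-type naive replicate 1, the array highest in Klf1, was also the highest wild-type naive array for Bid (8.62), Bak1 (7.65) and Bad (7.50). The same held for Bcl2 (10.78), Bcl2l1 (8.90) and Bcl2l11 (9.90), but not for Mcl1, Bbc3 and Pmaip1. Of the knockout naive arrays, replicate 1 was highest in Klf1, Bid (8.38), Bak1 (7.21), Bcl2l11 (10.03) and Bbc3 (7.96). It was not highest in Bcl2, Bcl2l1, Mcl1, Pmaip1 or Bad (7.10, against 7.21 in replicate 2). How many of all genes were highest on these arrays was not counted. The part of other cells in these values was not tested.

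**Figure D4:**
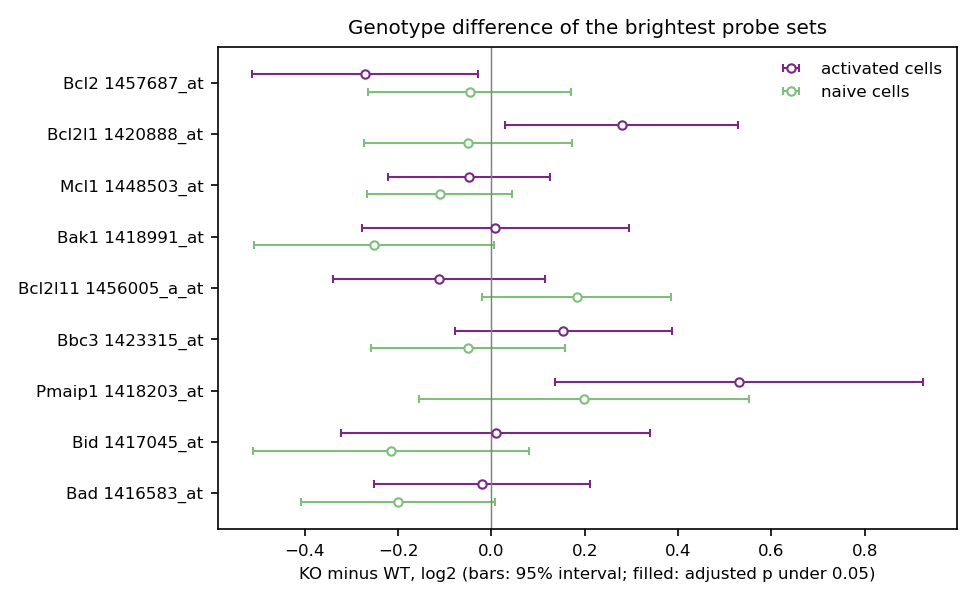
Knockout minus wild-type log2 difference (x axis) of the brightest probe set of each of the 9 genes, activated (purple) above naive (green), with 95% confidence intervals. All symbols are open, since 0 of the 9 genes passed in either state, and the activated Pmaip1 interval, 0.14 to 0.93, lies furthest right.

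The size of the response was compared between genotypes as the knockout activation difference minus the wild-type one. Of the 29 probe sets 0 passed (lowest adjusted p = 0.266 by limma, background 0%). At an unadjusted p under 0.05 there was 1 of 29, against 14.3% of all probe sets. By the brightest probe sets, Bcl2l1 differed in response by 0.33 (95% interval -0.01 to 0.66, adjusted p = 0.36) and Bcl2l11 by -0.29 (-0.60 to 0.01, adjusted p = 0.37). For Pmaip1 the difference was 0.33 (-0.20 to 0.86), for Bbc3 0.20 (-0.11 to 0.52) and for Bcl2 -0.22 (-0.55 to 0.10). These values moved with the wild-type activated arrays. Without replicate 1 and without replicate 2 they were 0.10 and 0.56 for Bcl2l1, -0.13 and -0.46 for Bcl2l11, -0.05 and 0.72 for Pmaip1, 0.04 and 0.37 for Bbc3, and -0.14 and -0.31 for Bcl2. The Bcl2l11 probe sets pointed both ways. Probe sets 1435448_at and 1456006_at gave -0.15 and -0.19, while 1435449_at gave 0.27 and 1426334_a_at 0.44 (-0.06 to 0.95, adjusted p = 0.41). Mcl1 differed by 0.06 (-0.17 to 0.30) by its brightest probe set and by -0.24 to -0.04 by its others. The widest gap was that of Bid 1447873_x_at at 1.01 (0.23 to 1.78, adjusted p = 0.27). The fall of Bcl2 that passed in knockout cells alone was therefore not shown to differ between genotypes.

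Around these genes, 5 lists of pathway genes were read by their brightest probe sets. For single genes in a given direction the background was 20.5% higher and 22.2% lower in knockout cells, and 19.6% higher and 20.6% lower in wild-type cells. Of 10 measured genes among 13 further BCL2 family members, 1 rose and 0 fell in knockout cells and 3 rose and 0 fell in wild-type cells. Bcl2l2, the gene of the survival protein BCL-W, rose by 0.53 in knockout and 0.44 in wild-type cells. Bmf, a BH3-only gene, differed by -0.10 in knockout cells (adjusted p = 0.37) and rose by 0.28 in wild-type cells (adjusted p = 0.027). Bcl2l10 differed by 0.04 in knockout (adjusted p = 0.73) and rose by 0.41 in wild-type cells. Without wild-type activated replicate 2 the wild-type adjusted p was 0.0913 for Bcl2l2 and 0.0855 for Bmf, and averaging the Bcl2l2 probe sets gave 0.622 in knockout cells. Averaging the Bmf probe sets gave -0.39 in knockout cells (adjusted p = 0.00569) and turned the wild-type value to -0.20 (adjusted p = 0.175). The wild-type Bmf call was also lost without wild-type activated replicate 1 (adjusted p = 0.0933) or wild-type naive replicate 1 (adjusted p = 0.0987). The median of this list was -0.04 in knockout and 0.11 in wild-type cells, against -0.03 and 0.06 over all genes.

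Downstream of the mitochondria, 9 of 17 measured apoptosome, caspase and inhibitor of apoptosis genes rose and 5 fell in knockout cells, and 8 rose and 5 fell in wild-type cells. The median was 0.21 in knockout and 0.15 in wild-type cells. Cycs, the gene of cytochrome c, rose by 1.09 and 0.78, and Aifm1, which encodes a mitochondrial flavoprotein, by 0.77 and 0.52, knockout before wild type. Casp8, the caspase that cleaves BID, fell by 1.04 in knockout and 0.91 in wild-type cells. Birc5, the survivin gene, fell by 1.29 and 1.72 in the same order. Some of the counted rises were lost under other settings. With only the compared arrays the wild-type rises of Diablo, Endog and Birc3 did not pass (limma adjusted p = 0.0583, 0.0556 and 0.0865). Under quantile normalization the knockout rise of Casp2 did not pass (limma adjusted p = 0.148).

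Among 9 death receptor genes 2 rose and 2 fell in knockout cells, and 2 rose and 3 fell in wild-type cells, with medians of 0.03 and -0.03. Fasl, the ligand of the death receptor FAS, rose by 0.73 in knockout and 1.28 in wild-type cells. Tnfrsf1a, a receptor for tumour necrosis factor, fell by 0.70 and 0.53, and its adaptor gene Tradd by 0.43 and 0.38, knockout before wild type. Tnfrsf10b, the TRAIL receptor gene, differed by 0.11 in knockout cells (adjusted p = 0.54) and rose by 0.43 in wild-type cells (adjusted p = 0.03). That call was lost without wild-type activated replicate 2 (adjusted p = 0.224) or wild-type naive replicate 1 (0.104), with only the compared arrays (0.0575) and with array weights (0.152). Averaging the Tnfrsf10b probe sets gave 0.42 in knockout cells (adjusted p = 0.00072).

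Pmaip1 and Bbc3 are p53 targets, and of 12 other measured p53 pathway genes 5 rose and 5 fell in knockout cells, while 3 rose and 4 fell in wild-type cells. The medians were 0.13 and 0.12, knockout before wild type. Cdkn1a, the p21 cell cycle inhibitor gene, rose by 1.25 and 1.17, and Aen, which encodes a p53-induced nuclease, by 1.45 and 1.31 in the same order. Sesn1, a sestrin gene, fell by 1.54 in knockout and 1.20 in wild-type cells. Perp rose by 0.90 in knockout cells and differed by 0.32 in wild-type cells (adjusted p = 0.11, and 0.0463 without knockout naive replicate 3).

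Of 8 genes for regulators of BCL2 family protein stability 3 rose and 3 fell in knockout cells, and 2 rose and 3 fell in wild-type cells, with medians of -0.12 and -0.13. Trib2, a pseudokinase gene, fell by 1.37 and 1.09, and Gsk3b, whose kinase marks MCL1 for degradation, by 0.78 and 0.79, knockout before wild type. Usp9x, the gene of a deubiquitinase of MCL1, rose by 0.62 in knockout cells and differed by 0.15 in wild-type cells (adjusted p = 0.26). Bag1, which encodes a partner of BCL2, rose by 0.53 and 0.34, and leaving out wild-type activated replicate 2 gave 0.119 as the adjusted p of the wild-type rise. No gene of the 5 lists passed in either comparison of genotypes or in the interaction, though Bmf passed in naive cells with array weights (0.31, adjusted p = 0.0383) or without wild-type naive replicate 3 (0.41, adjusted p = 0.0461).

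**Figure D5:**
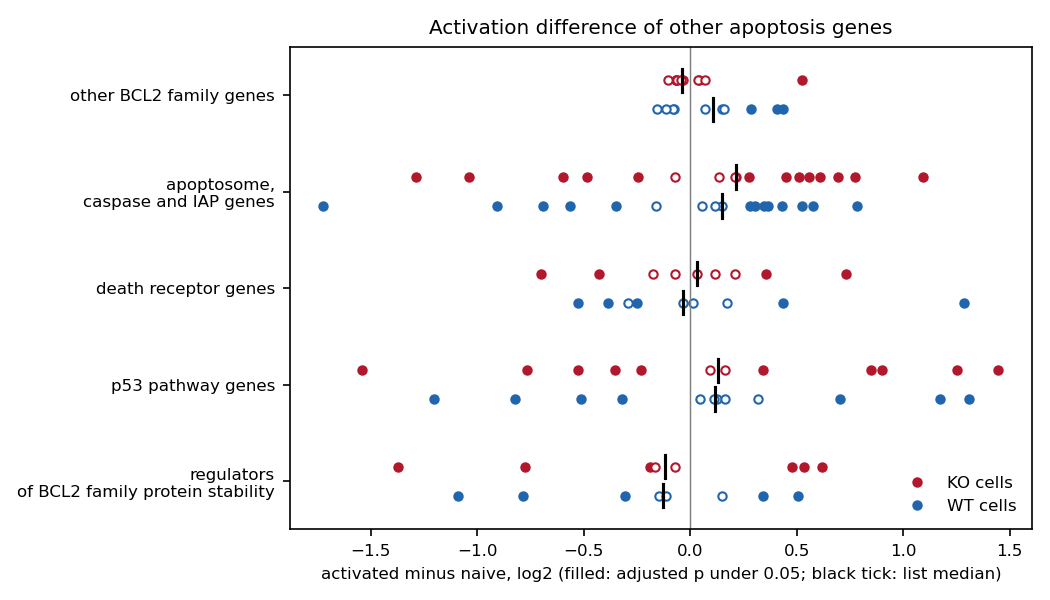
Activated minus naive log2 difference (x axis) of the measured genes of the 5 pathway lists, with knockout (red) above wild type (blue) in each list. Points are genes by their brightest probe set, and black ticks are list medians. The medians run between -0.13 and 0.21, and single genes reach 1.45 to the right (Aen) and -1.72 to the left (Birc5).

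By the brightest probe sets Bcl2l1 had the largest activation difference of the family, and the genes with the most similar profile over the 11 arrays were 2700038G22Rik, Ccdc58 and Znrd2. Likeness was measured as the root mean square difference of profiles centred on their own mean. It was 0.081, 0.094 and 0.096 log2 for these 3 genes, against a median of 0.987 over the 18193 genes compared. Their activation differences were 2.17, 2.08 and 1.89 in knockout cells and 1.80, 1.76 and 1.75 in wild-type cells, each in the order in which the genes are named.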

How the data were processed

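Biotin-labelled RNA of each sample was hybridised to 1 one-colour array. The deposited values are log2 expression levels that the authors computed, with GCOS, RMA and Partek named in the submitters' processing notes; their versions are not stated there. The 45101 probe sets of 11 arrays had 0 missing values and array medians of 5.84 to 5.89, and were used as deposited. Platform annotation gave 34958 probe sets 1 symbol, 932 several and 9211 none.

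Group means were fitted over all 11 arrays with limma 3.58.1 in R 4.3.3 (residual degrees of freedom 7, prior 5.74). The 5 comparisons were activated against naive in each genotype, knockout against wild type in each state, and the interaction. Adjustment was by Benjamini-Hochberg over 34958 probe sets, and an adjusted p under 0.05 passed. The fit was tested on simulated data first. Arrays of a group are labelled biological replicates, with no word on which share an animal; p-values measure the spread between them, and 2 or 3 arrays a group limit the precision.

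Named were all members, each first by its probe set of highest mean; of each pathway list up to 4 genes with the largest difference past the threshold; Crbn; and the 3 profiles nearest to the member of largest difference. The members and lists were chosen with earlier results of these data known. Plots and promoter searches used matplotlib 3.10.9 and pandas 2.3.3 in Python 3.11.15. Alternatives were 1 probe set per gene, the mean of a gene's probe sets, a filter at the median level, limma's robust trended prior, only the compared arrays, array weights, quantile normalization again, median centring, a replicate block, and leaving out each array.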

Additional observations from a re-analysis of the deposited data

How the results depend on the processing

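The number of the 9 family genes past the threshold stayed at 7 to 8 in knockout activation and at 7 in wild-type activation under the other settings, and ranged over 7 to 8 and 6 to 7 when single arrays were left out, knockout before wild type. For probe sets, leaving out single arrays gave 20 to 23 in knockout and 16 to 20 in wild-type activation, and 0 in both genotype comparisons and the interaction under every alternative run. Of 2738 recomputed member values 2717 kept their side of the threshold and, where called, their direction, while 8 lost and 13 gained a call and 0 called ones reversed. The lost calls stand with the results, beside that of Mcl1 1456381_x_at in wild-type cells under the replicate block within genotype (-0.32, adjusted p = 0.0665). Where 1 wild-type activated array was left out, the remaining one was assumed to vary like the other groups. Of 5784 recomputed values of the list genes and Crbn, 5659 kept their side, 98 lost and 22 gained a call, and 5 reversed. Averaging each gene's probe sets reversed Xiap in knockout (0.158) and wild-type cells (0.059), and in wild-type cells Bmf (-0.201), Birc3 (-0.027) and Huwe1 (0.015). The cause was not tested.

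The deviations of arrays of the same replicate number correlated at -0.282 to 0.348 over 15 pairs. The arrays were not treated as paired in the main fit, since the labels leave it unknown whether a number marks 1 animal. Across states 6 of 6 knockout arrays correlated best with their own number, at 0.062 to 0.231. The wild-type pairs of the same number across states stood at -0.282 and -0.183. The highest value, 0.348, was that of knockout naive with wild-type naive replicate 1, which differ in genotype and so are not 1 animal. These correlations therefore do not tell whether a number marks 1 animal. With the replicate block 8 genes and 22 probe sets passed in knockout activation and 7 and 19 in wild-type activation, and 0 in the genotype comparisons and the interaction. Over all 34958 probe sets the block changed the calls to 344 in naive cells (55 without it), 16 in activated cells (22 without it) and 49 in the interaction (0 without it, 54 with the block within genotype and 10 without wild-type activated replicate 2). Naive calls numbered 521 without wild-type naive replicate 3. The block within genotype could not give the genotype comparisons, and the interaction already uses all arrays, so a fit of only the compared arrays was not run for it. The groups of 2 or 3 arrays limit what differences could be seen.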

Other observations

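Of 5 motifs searched on both strands of the 250 bases before the start sites, the kappaB motif was in 4 of 15 family windows, those of Bcl2l1, Mcl1, Bcl2l11 and Bbc3, and in 4.11% of all 32851 windows. The E-box CACGTG was in 2 family windows, of Bax and Bbc3, and in 6.02% of all windows. The AP-1 motif TGANTCA and the STAT motif TTCNNNGAA were in 0 family windows and in 6.75% and 7.02% of all windows. Bcl2l1 and Bcl2l11 rose on activation while Mcl1 and Bbc3 fell, so the genes with a kappaB match did not share a direction. A match describes the letters of the window alone, and windows of 1 gene share a locus.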
